A study of Mus musculus with 17 samples.

Results

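The 6 genes of the CCN family (Ccn1 to Ccn6) were followed through all 17 single-cell RNA libraries of the series, 8 from skin and 9 from kidney. They are 6 of the 30406 genes that both gene lists of the series hold. The 2 lists write the family differently, so the genes were joined by Ensembl ID. The longer list has the current symbols, and the shorter list has Cyr61 for Ccn1, Ctgf for Ccn2, Nov for Ccn3, Wisp1 for Ccn4, Wisp2 for Ccn5 and Wisp3 for Ccn6.

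CCN proteins are secreted matricellular proteins, which sit in the extracellular matrix and act on cells through integrins, LRP receptors and heparan sulphate proteoglycans. Most are built from an IGF-binding-protein-like, a von Willebrand type C, a thrombospondin type 1 and a cystine-knot module, and Ccn5 lacks the last of these. Ccn1 and Ccn2 are known as rapid targets of the YAP/TAZ-TEAD pathway and of serum, and Ccn2, connective tissue growth factor, is a long-used marker of fibrosis in skin and kidney.

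Cells came from mice that carried PDGFRb-Cre and the Z/EG reporter, in which Cre switches on GFP, and GFP+ cells were sorted before droplet capture. SARATg mice also carried a human ZFYVE9 cDNA (SARA, first described as an adaptor in TGF-beta signalling) that PDGFRb-Cre turns on, and SARAWT mice were littermates without it. The sorted cells were of many types, and the study's text notes that inflammatory cells also use this promoter, but only in the embryo. All mice were 8 weeks old. In skin there were 3 PBS and 3 bleomycin libraries of SARAWT mice, and 1 of each treatment of SARATg mice. Per the labels, bleomycin was injected under the skin at 20 mg/kg, 3 times a week for 2 weeks, whereas the study's methods give daily injections. Kidney libraries came from SARAWT mice given vehicle (3) or aristolochic acid (AA, a plant nephrotoxin; 3) and from SARATg mice given vehicle (2) or AA (1). AA was given into the peritoneum at 5 mg/kg, 3 times a week for 3 weeks. The labels do not say that each library is 1 animal, so p-values below measure the spread between libraries.

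After filtering, 775 to 6198 cells per skin library and 3834 to 9116 per kidney library remained, from 3355217 to 137093834 unique molecular identifiers (UMIs, counted mRNA molecules) per library. Cells were given a class by at least 3 of 10 marker genes, and no CCN gene was a marker. Of 92 markers kept out of this gate, 77 were highest in their own class. Zfyve9 went against some labels. Over all cells it was at 615 CPM (UMIs of the gene per 1000000 UMIs of the cells summed) in the library labelled SARAWT PBS 3, against 314 and 222 CPM in the SARATg skin libraries and 7.71 to 25.9 CPM in the other 5 skin libraries labelled SARAWT. The human ZFYVE9 entry, listed in 4 skin libraries only, all labelled SARAWT, stood at 838 CPM in the library labelled SARAWT PBS 1 and at 86.5 to 189 CPM in the other 3. In kidney, Zfyve9 was at 158 CPM in the library labelled SARAWT AA 1 and 19.2 CPM in the library labelled SARATg AA 1. Library names below are therefore names by label. In the skin library SARAWT PBS 2, the shallowest, 55.5% of barcodes also occurred in another skin library. This share was 22.1% in SARAWT bleomycin 2, 17.6% in SARAWT bleomycin 1 and 7.38% in SARAWT PBS 1, the other libraries with the longer gene list. It was 0.594% to 0.824% in the skin libraries with the shorter list. In kidney, the library labelled SARAWT vehicle 3 held 12.2% proximal tubule cells, whereas the other 2 vehicle libraries held 77.0% and 72.7%. Its share lay within that of the SARAWT AA libraries (6.14% to 23.2%), as did its leukocytes, at 79.0% against 67.0% to 85.7% after AA and 11.8% and 14.7% in the other vehicle libraries. In these 2 shares it was thus like the SARAWT AA libraries. Its endothelial share was not, at 2.50% against 0.0596% to 1.63% in them. The SARATg vehicle libraries lay between, with 27.5% and 27.0% proximal tubule cells and 50.35% and 53.8% leukocytes. A low tubule share was thus not particular to AA, and each comparison of AA with vehicle below includes SARAWT vehicle 3 by its label.

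The 6 genes have 5 exons each in the GENCODE annotation of GRCm38. Ccn1 is at chr3:145646976-145649981 (minus strand), Ccn2 at chr10:24595442-24598683 (plus), Ccn3 at chr15:54745702-54754039 (plus), Ccn4 at chr15:66891320-66923201 (plus), Ccn5 at chr2:163820861-163833146 (plus) and Ccn6 at chr10:39150970-39163794 (minus). Over the 15 pairs of members, the longest run of bases that 2 transcripts shared exactly was 10 to 28 bases long. The sequence before the start of Ccn1, the member with the largest counts, is shown because Ccn1 was set beside other YAP/TAZ-TEAD targets and immediate early genes below. Targets of cyclic AMP were not followed as a list. It is 250 bases of RefSeq on GRCm38, chr3:145649986-145650235, minus strand, with 3 runs in capitals.
Ccn1 upstream region: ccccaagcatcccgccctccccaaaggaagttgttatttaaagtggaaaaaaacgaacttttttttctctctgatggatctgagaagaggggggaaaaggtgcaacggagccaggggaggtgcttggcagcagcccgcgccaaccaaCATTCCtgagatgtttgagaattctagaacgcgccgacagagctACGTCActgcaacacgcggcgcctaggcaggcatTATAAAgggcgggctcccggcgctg
The first capitals mark CATTCC, the core letters read by TEAD factors, 103 bases before the start. The next mark ACGTCA, part of the cyclic AMP response element, 59 bases before it. The last mark TATAAA, the core promoter letters bound by TBP, 25 bases before it. On either strand, the TEAD letters occurred in 12.6% of 32851 mouse upstream regions of this length, the cyclic AMP letters in 6.47% and the TBP letters in 12.4%. The 3 runs did not overlap in Ccn1. These are matches of letters only. The table held an upstream region for 2 of the 6 members.

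In skin, most UMIs of Ccn1, Ccn3, Ccn4 and Ccn5, and the largest share of those of Ccn2, lay in stromal cells, the Pdgfra and Dcn positive fibroblast-like class, which had 2726 of the 28930 skin cells. This class held 82.1% of the 37826 Ccn1 UMIs, 48.9% of the 7287 Ccn2 UMIs, 92.9% of the 2634 Ccn3 UMIs, 68.1% of the 2231 Ccn4 UMIs and 88.1% of the 2407 Ccn5 UMIs. Ccn6 had 11 UMIs in all skin cells and 20 in all kidney cells, and is not described further. Leukocytes, pooled over their classes, were at 4.10 ± 6.19 CPM for Ccn1 (mean ± SD, n = 8 libraries) and at less than this for the other 4. Single leukocyte classes lay apart, so this pool is a level for comparison and not one of free RNA alone. Ccn4 in SARATg bleomycin was at 13.4 CPM in T, NK and innate lymphoid cells and at 0.752 CPM in macrophages and monocytes. Neutrophil Ccn2 reached 91.2 CPM, with a median of 0. Stromal cells were above leukocytes in 8 of 8 libraries for each of the 5 genes, by 1.95 (Ccn4) to 5.25 (Ccn1) on the log2(CPM + 10) scale, and each of these differences passed (exact sign-flip permutation test over libraries, two-sided, p = 0.00781, the smallest it can give; 0.0359 adjusted over the 46 class differences compared in both tissues, of which 17 passed).

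**Figure D1:**
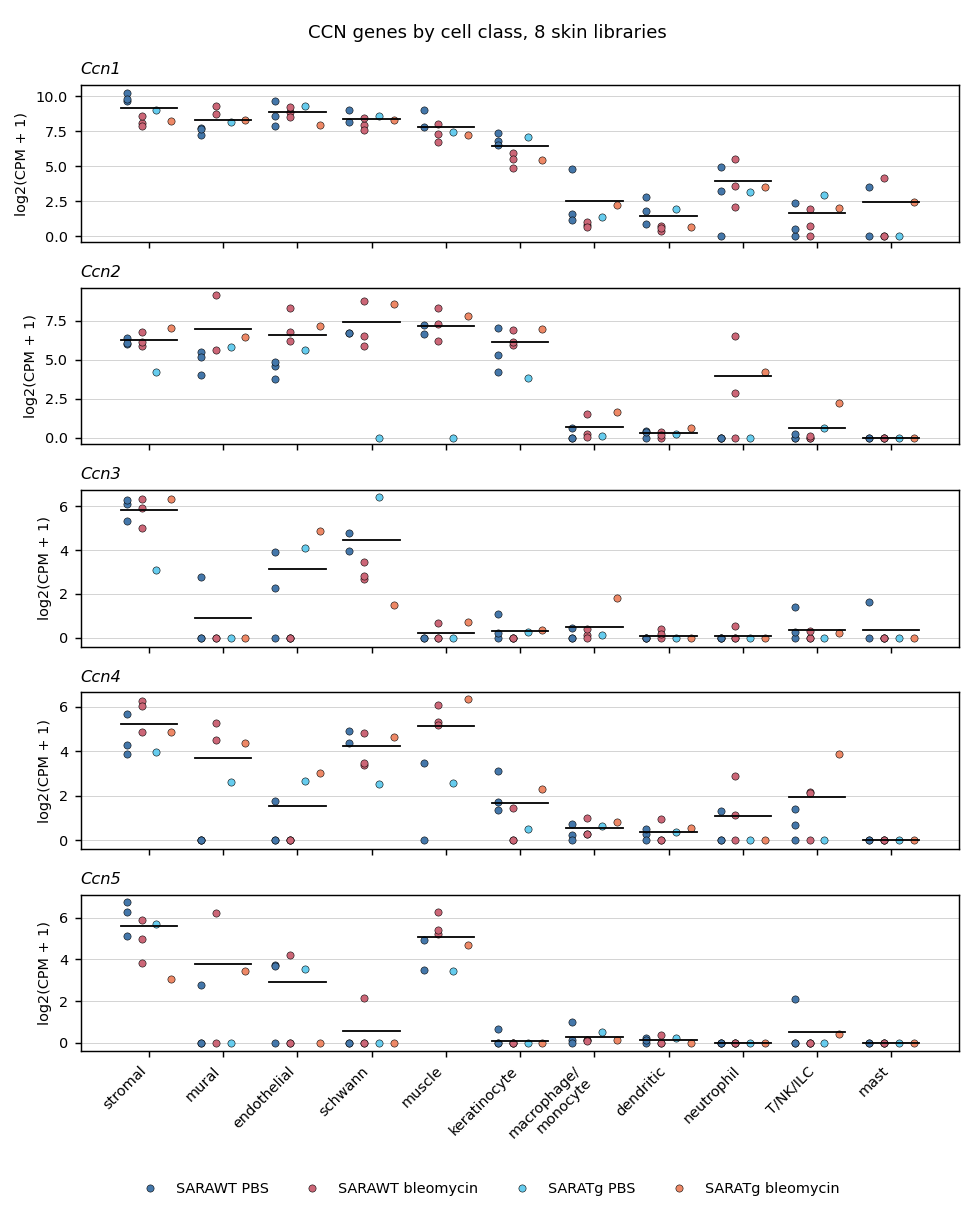
Level of 5 CCN genes in skin, as log2(CPM + 1) on the vertical axis, for 11 cell classes on the horizontal axis. Each point is 1 library with at least 10 cells of the class, coloured by group, and the line is the mean CPM over libraries. Mean Ccn1 is 226 to 584 CPM in stromal, mural, endothelial, schwann and muscle cells and 84.3 CPM in keratinocytes, mean Ccn2 is 70.6 to 166 CPM in these 6 classes, and Ccn3 and Ccn5 are highest in stromal cells.

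The 5 genes did not share one pattern across classes. Ccn1 was at 584 ± 361 CPM in stromal cells (n = 8), 461 ± 200 in endothelial cells (n = 8), 329 ± 102 in schwann cells (n = 7), 315 ± 165 in mural cells, the pericyte and smooth muscle class (n = 7), 226 ± 140 in muscle cells (n = 7) and 84.3 ± 48.4 in keratinocytes (n = 8). Of the neighbours in this order, only muscle cells against keratinocytes passed (log2 difference 1.41 ± 0.94, higher in 7 of 7 libraries, exact sign-flip permutation p = 0.0156, adjusted 0.0423). Ccn2 was at 166 ± 166 CPM in schwann cells, 144 ± 102 in muscle, 122 ± 197 in mural, 92.9 ± 98.4 in endothelial, 74.6 ± 34.3 in stromal cells and 70.6 ± 47.0 in keratinocytes, and no neighbouring classes tested, in the order of their mean log level, were shown to differ. Stromal and mural cells differed by 0.90 ± 1.48 in Ccn1 and by -0.06 ± 1.57 in Ccn2 on the log2(CPM + 10) scale over all libraries, means over libraries that differed in sign between treatments (given with mural cells below).

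Ccn3, a member known for binding integrins and for roles in neural and vascular cells, was the member for which stromal cells passed against both mural and endothelial cells. It was at 55.0 ± 26.5 CPM there, at 0.848 ± 2.24 in mural cells and at 7.77 ± 10.6 in endothelial cells. Both differences passed, by 2.41 ± 0.94 against mural cells (7 of 7 libraries) and 1.91 ± 1.28 against endothelial cells (7 of 8; exact sign-flip permutation p = 0.0156 and adjusted p = 0.0423 for each). Ccn3 was also read in schwann cells, at 21.2 ± 29.0 CPM, and stromal cells were not shown to differ from these (1.18 ± 1.77, adjusted exact permutation p = 0.249). The schwann mean rests on SARATg PBS, at 84.5 CPM from 18 UMIs, the library in which schwann cells were above stromal cells (7.46 CPM), whereas the other 6 schwann values were 1.85 to 26.3 CPM and below the stromal value of their library. Ccn4 and Ccn5, first named as genes induced by WNT1, were at 36.4 ± 23.4 and 47.3 ± 33.4 CPM in stromal cells and passed against endothelial cells in 8 of 8 libraries each (log2 differences 1.84 ± 0.91 and 1.68 ± 0.96, exact permutation adjusted p = 0.0359), but not against mural cells (adjusted p = 0.0685 for Ccn4, and a Ccn5 difference of 1.54 ± 1.93 that was higher in 5 of 7 libraries). Muscle cells were at 33.5 ± 30.8 CPM of Ccn4 and 32.7 ± 22.8 CPM of Ccn5 over all treatments. By treatment, muscle Ccn4 was at 0 and 10.1 CPM in SARAWT PBS 1 and 3 and at 4.94 CPM in SARATg PBS, from at most 3 UMIs each, and at 66.8, 39.0 and 34.96 CPM in the SARAWT and 79.0 CPM in the SARATg bleomycin libraries. No fit was made in muscle cells, and this difference was not tested.

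Over 23 classes of both tissues and 12284 genes, the genes whose mean levels followed each member most closely differed as well. This is a description by Pearson correlation of log2(mean CPM + 1), in which the classes of a tissue share their libraries. They were Dpysl3 (r = 0.947), Mpdz and Phlda3 for Ccn1; Phlda3 (r = 0.931), Rbfox2 and Cald1 for Ccn2; Fbln5 (r = 0.919), Stmn2 and Fez1 for Ccn3; Islr (r = 0.910), Mxra8 and Gli3 for Ccn4; and Dpt (r = 0.929), Svep1 and Srpx2 for Ccn5. Dpt is also one of the stromal markers. Ccn1 and Ccn2 followed each other at r = 0.876, and Ccn5 and Ccn3 at r = 0.461.

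Within stromal cells, 4 sets of cells were marked by at least 2 of 6 genes each. Over the libraries of all treatments, Ccn5 was at 84.5 ± 78.2 CPM in the adventitial set (Pi16, Dpp4 and others), 38.0 ± 26.7 in the Mmp3 set and 13.8 ± 19.1 in the set led by Cthrc1 and Postn (n = 8 each). The PBS libraries kept this order, and the bleomycin libraries did not. Ccn5 was at 14.7 CPM in the adventitial against 80.3 in the Mmp3 set of SARAWT bleomycin 2, at 16.6 against 40.4 in SARAWT bleomycin 3, and at 0 in the adventitial against 9.50 in the Cthrc1 set of SARATg bleomycin. In SARAWT bleomycin 1 it was at 13.4 CPM in the Mmp3 against 59.4 in the Cthrc1 set. Ccn4 was at 67.3 ± 41.4 CPM in the Cthrc1 set, 25.2 ± 29.4 in the Mmp3 set and 15.9 ± 21.9 in the adventitial set. Libraries of both treatments departed from this order in their values, those after PBS by no more than counting error. The adventitial set was above the Mmp3 set in SARATg PBS, at 13.3 against 11.6 CPM, and in SARAWT PBS 2, at 10.6 against 0 CPM. Ccn4 was at 52.6 CPM in the Cthrc1 against 67.6 in the adventitial set of SARAWT bleomycin 2, and at 31.8 against 89.6 in the Mmp3 set of SARATg bleomycin. The papilla set (Crabp1, Corin and others, genes of the hair follicle's dermal papilla) had at least 10 cells in 4 libraries. There Ccn1 was at 3601 CPM in SARAWT PBS 1, 2907 in SARAWT PBS 3, 1004 in SARAWT bleomycin 3 and 2439 in SARATg bleomycin, which was above every other stromal set of the same library. These levels were not tested against each other.

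**Figure D2:**
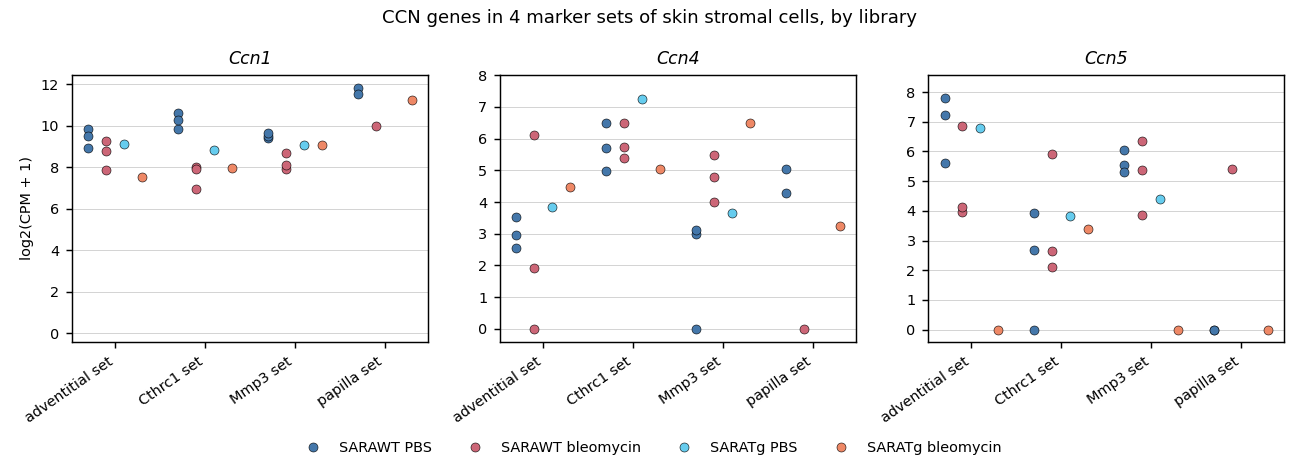
Level of Ccn1, Ccn4 and Ccn5 as log2(CPM + 1) in 4 marker sets of skin stromal cells. Each point is 1 library with at least 10 cells of the set, coloured by group. Ccn1 is highest in the papilla set (4 libraries).

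Bleomycin against PBS in SARAWT skin asks how the family stands in the fibrotic skin. In stromal cells Ccn1 was at 1227, 817 and 903 CPM in the 3 PBS libraries and at 274, 388 and 231 CPM in the 3 bleomycin libraries. Every bleomycin library was below every PBS library. A lower group without overlap was seen for 14.9% of the 10292 genes tested. The log2 difference was -1.69 ± 0.25 (SE). It did not pass over all genes (edgeR quasi-likelihood test, adjusted p = 0.0554), and it passed with the replicate number as a block (-1.71 ± 0.23, adjusted p = 0.0288), a fit that called 689 genes, 6.33% of 10891. Without the block edgeR called 0 genes, 0% of 10292, with 2322 genes (22.6%) under an unadjusted p of 0.05, and DESeq2 called 611. Of the 5 members tested, 0 passed without the block and Ccn1 passed with it. SARAWT PBS 1 and 3, with the highest human ZFYVE9 and Zfyve9, are called both libraries against their labels below. Without them the Ccn1 difference was -1.43. This leaves SARAWT PBS 2 alone in its group and assumes that it varies like the bleomycin libraries. Human ZFYVE9 was also read in SARAWT PBS 2 (189 CPM) and in SARAWT bleomycin 1 and 2 (86.5 and 112 CPM), so the genotype here is by label as well. Without cells whose barcode was shared between libraries the Ccn1 difference was -1.21 (edgeR adjusted p = 0.345).

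The share of stromal cells with at least 1 Ccn1 UMI gave the same order only at equal depth. After each cell was thinned to 1000 UMIs, it was 50.5%, 31.2% and 41.6% in the PBS libraries and 20.0%, 18.7% and 17.7% in the bleomycin libraries. Before thinning, where depth differs between libraries, it was 78.4%, 46.9% and 82.8% against 56.8%, 48.3% and 54.8%, so the groups overlapped, with SARAWT PBS 2, the shallowest library, below all 3 bleomycin libraries. Cells under 1000 UMIs were left out of the thinned shares, 39, 36 and 4 in the PBS libraries and 36, 38 and 2 in the bleomycin libraries. In leukocytes the thinned share was 0.467% over all skin libraries, at a mean median depth of 8616 UMIs against 13158 in stromal cells.

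By set of stromal cells, the Ccn1 difference was -2.51 ± 0.36 in the Cthrc1 set (edgeR adjusted p = 0.0117), where 436 genes, 5.54% of 7874, were called. The levels behind it were 924, 1559 and 1253 CPM after PBS and 253, 237 and 121 CPM after bleomycin. It was -1.26 in the Mmp3 set and -0.82 in the adventitial set, and neither passed (adjusted p = 0.348 and 0.336). These sets were added after the values were seen. Leaving out the papilla set, which had at least 10 cells in 2 of the PBS and 1 of the bleomycin libraries, gave -1.57 (adjusted p = 0.0545).

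Ccn1 is itself quick to respond when tissue is dissociated, so the 14 immediate early and dissociation genes (Fos, Jun, Egr1 and others) were set beside it. In stromal cells their summed level was 9621 to 14410 CPM after PBS and 4857 to 9006 CPM after bleomycin. None passed, 9 of the 14 were lower at an unadjusted p under 0.05, which 22.6% of all genes reached in either direction, and their median log2 difference was -0.68, against -0.04 for all genes. Their part in the Ccn1 difference was not tested. Of 20 other YAP/TAZ-TEAD targets, 18 were tested and 0 passed, with 1 higher and 3 lower at an unadjusted p under 0.05 and a median of -0.10. The 10 tested CCN receptors and co-receptors (integrins, LRP1, LRP6 and others) had 2 higher and 1 lower before adjustment, the 8 TGF-beta/SMAD targets 1 and 1, and the 8 tested WNT/beta-catenin targets 0 and 0, and 0 genes of these 3 lists passed. These shares of the receptor, YAP/TAZ and TGF-beta/SMAD lists are near the 22.6% of all genes.

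The other stromal members were closer between the groups. Ccn2 was at 63.6, 82.9 and 64.7 CPM after PBS and 110, 58.7 and 68.9 after bleomycin (log2 difference 0.23 ± 0.29, edgeR adjusted p = 0.672). The groups overlapped, as they did for Ccn3, at 67.0, 77.5 and 39.3 against 58.8, 31.6 and 78.5 CPM (-0.04 ± 0.36, adjusted p = 0.964). Ccn4 was at 50.5, 13.6 and 18.2 CPM after PBS and 74.4, 63.1 and 28.3 after bleomycin (0.98 ± 0.49, adjusted p = 0.277). Ccn5 was at 76.7, 107 and 34.3 CPM after PBS and 58.4, 30.8 and 13.3 after bleomycin (-0.97 ± 0.55, adjusted p = 0.333). Both had overlapping groups, but within each pair of same-numbered libraries Ccn4 was higher and Ccn5 lower after bleomycin. With the replicate block they were at 1.01 ± 0.31 and -1.07 ± 0.33 and did not pass (edgeR adjusted p = 0.0962 and 0.101), nor did Ccn2 at 0.20 ± 0.30 or Ccn3 at -0.04 ± 0.39 (adjusted p = 0.695 and 0.961). An adjusted p above 0.05 does not show that levels are equal.

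**Figure D3:**
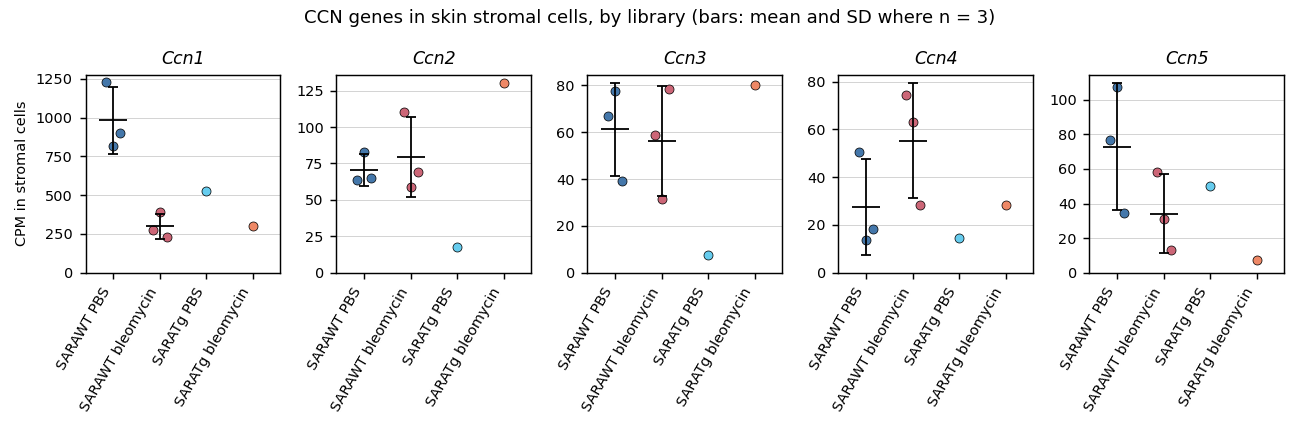
CPM of 5 CCN genes in skin stromal cells, 1 point per library, for the 4 skin groups, with mean and SD where a group has 3 libraries. Ccn1 is at 817 to 1227 CPM in the SARAWT PBS libraries and 231 to 388 CPM in the SARAWT bleomycin libraries, without overlap.

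In mural cells Ccn1 had the opposite order. It was at 148, 210 and 199 CPM in the PBS libraries and at 632 and 417 CPM in bleomycin libraries 2 and 3, from 10 to 43 cells and 14 to 67 Ccn1 UMIs per library. Bleomycin library 1 had 4 mural cells and was left out. Both bleomycin libraries were above the 3 PBS libraries, as for 13.8% of the 1538 genes tested. The log2 difference of 1.53 ± 0.32 did not pass (edgeR adjusted p = 0.101; 1 gene called, 0.065%, and 250 genes, 16.3%, Ccn1 among them, under an unadjusted p of 0.05). With the replicate block, which leaves 2 pairs, it was 1.32 ± 0.39 and did not pass (edgeR adjusted p = 0.0515; 78 genes called, 3.62%). The summed immediate early genes were at 17185 to 20242 CPM in the PBS libraries and 12674 and 20034 CPM in the bleomycin libraries, and overlapped. The difference between stromal and mural cells of the same library, in log2(CPM + 10), was 2.33 after PBS (n = 3) and -0.76 after bleomycin (n = 2). These means differed by -3.09 (exact permutation test, two-sided, p = 0.2, the smallest it can give). For Ccn2 the same difference was 0.996 after PBS and -1.33 after bleomycin, apart by -2.32 (exact permutation p = 0.2). The 2 SARATg libraries, with 27 mural cells after PBS and 10 after bleomycin, were not in these comparisons. Over the 7 libraries of both genotypes the median of mural Ccn1 was 286 CPM. Each SARATg library lay at this median or above it, so SARATg PBS was above all 3 SARAWT PBS libraries. Mural Ccn2 was uneven over the same 7 libraries, from 15.6 to 566 CPM with a median of 49.1 CPM. Stromal cells were above mural cells in Ccn2 in 5 of these 7.

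In endothelial cells Ccn2 was the member whose groups did not overlap. It was at 22.8, 12.4 and 28.3 CPM after PBS, from 6, 1 and 12 UMIs, and at 72.4, 310 and 107 CPM after bleomycin, from 5, 18 and 22 UMIs. Every bleomycin library was above every PBS library, as for 7.3% of the 2562 genes tested. The log2 difference of 2.63 ± 0.60 did not pass in edgeR (adjusted p = 0.108; 0 genes called, 0%, and 325 genes, 12.7%, under an unadjusted p of 0.05) and passed in DESeq2 (2.69, adjusted p = 0.0243; 49 genes called). With the replicate block it was 2.36 ± 0.56 and did not pass (edgeR adjusted p = 0.102; 20 genes called, 0.625%). Ccn1 in the same cells was at 808, 236 and 378 against 463, 586 and 356 CPM, with overlapping groups (-0.03 ± 0.44, edgeR adjusted p = 0.987). Stromal minus endothelial Ccn2, on the log2(CPM + 10) scale, was 1.39 after PBS and -0.75 after bleomycin, a difference of -2.14 (exact permutation p = 0.1, the smallest that 3 against 3 libraries can give), and for Ccn1 it was 1.19 and -0.64, a difference of -1.83 (exact permutation p = 0.1). In keratinocytes, where no fit was made, Ccn1 was at 161, 113 and 90.2 CPM after PBS and 27.8, 59.1 and 45.7 after bleomycin.

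Over all skin cells, Ccn1 was at 377, 213 and 118 CPM after PBS and 58.3, 43.3 and 26.4 after bleomycin, again without overlap, as for 17.6% of the 15260 genes tested. The log2 difference of -2.29 ± 0.44 did not pass (edgeR adjusted p = 0.0706, 0 genes called, 0%, 2802, 18.4%, under an unadjusted p of 0.05, DESeq2 1349) and passed with the replicate block (-2.23 ± 0.14, adjusted p = 0.0154; 650 genes called, 4.09%). Over all cells the replicate number was not set apart from the gene list, as given with the processing. Without the library labelled SARAWT PBS 3, edgeR called 1022 genes, Ccn1 among them (-2.59, adjusted p = 0.0221). In the same fit Ccn3 and Ccn5, at -1.53 and -1.69 over all libraries (adjusted p = 0.229 and 0.247), were at -1.97 and -2.19 and passed (adjusted p = 0.0477 and 0.0380). Stromal cells were 15.4%, 14.6% and 7.42% of the PBS libraries and 5.25%, 6.81% and 1.68% of the bleomycin libraries. Within stromal cells Ccn1 was at -1.69 and Ccn3 at -0.04, as given above.

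SARATg against SARAWT skin compares libraries by label. Since Zfyve9 in the library labelled SARAWT PBS 3 (615 CPM) was above both SARATg libraries, and human ZFYVE9 was at 838 CPM in the library labelled SARAWT PBS 1, the fold changes after PBS cannot be read as those of cells with against cells without the transgene. Of the SARAWT PBS libraries, SARAWT PBS 3 alone shared the gene list of the SARATg libraries. Without it the difference after PBS was 0.11 for Ccn1 and -3.48 for Ccn3, and none of the 5 members passed. With 1 SARATg library per treatment, the fit took the spread from the SARAWT libraries and assumes that a SARATg library varies like them. After PBS, Ccn1 was at 526 CPM in the SARATg stromal cells (exact Poisson 95% interval 515 to 537, counting error only), Ccn2 at 17.4 (15.5 to 19.5), Ccn3 at 7.46 (6.22 to 8.86), Ccn4 at 14.4 (12.7 to 16.4) and Ccn5 at 50.3 (47.0 to 53.8). Ccn1, Ccn2 and Ccn3 lay below the 3 SARAWT PBS libraries, as did 53% of the 12947 genes tested, and Ccn4 and Ccn5 lay within their range. In SARAWT PBS 1 to 3, Ccn4 was at 50.5, 13.6 and 18.2 CPM and Ccn5 at 76.7, 107 and 34.3 CPM. The gene list covariate shifts the fitted values, so their sign need not be that of the CPM means. Without it the Ccn4 difference was -0.50. With the gene list as a covariate, the log2 differences were -0.24 ± 0.39 for Ccn1, -1.41 ± 0.48 for Ccn2, -2.55 ± 0.63 for Ccn3, 0.21 ± 0.57 for Ccn4 and 1.08 ± 0.46 for Ccn5. None passed in edgeR (adjusted p from 0.421 to 1; 0 of 12947 genes called, 0%, with 936 genes, 7.23%, and of the members Ccn2, Ccn3 and Ccn5, under an unadjusted p of 0.05). Ccn3 passed in DESeq2 (-2.60, adjusted p = 0.0188; 87 genes called).

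The comparison after bleomycin is also one of labels. Human ZFYVE9 was at 86.5 and 112 CPM in SARAWT bleomycin 1 and 2, and SARAWT bleomycin 3 alone of its group shared the gene list of the SARATg libraries. After bleomycin the SARATg library was at 301 CPM of Ccn1 (292 to 310), 130 of Ccn2 (124 to 137, bounds of the same kind), 80.4 of Ccn3 (75.8 to 85.2), 28.3 of Ccn4 (25.6 to 31.2) and 7.44 of Ccn5 (6.09 to 9.01). Ccn1 was within the range of the 3 SARAWT bleomycin libraries, Ccn4 was level with the lowest of them, Ccn2 and Ccn3 were above it, as were 26.9% of the 12947 genes tested, and Ccn5 was below it, as were 19.7%. The 5 log2 differences lay between -1.09 ± 0.53 (Ccn5) and 0.79 ± 0.46 (Ccn2), and none passed (edgeR adjusted p from 0.967 to 0.993; 0 of 12947 genes called, 0%, 622, 4.8%, under an unadjusted p of 0.05 with 0 members among them, DESeq2 20).

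Between the 2 SARATg libraries, Ccn2 was higher and Ccn5 lower after bleomycin. This comparison was added after the values were seen, has 1 library on each side, and its p-values assume that both vary like the SARAWT libraries, so it has no replicate check of its own. The log2 difference was 2.51 ± 0.53 for Ccn2 (edgeR adjusted p = 0.0477) and -3.15 ± 0.56 for Ccn5 (adjusted p = 0.0363). Ccn3 was at 3.04 ± 0.65, Ccn1 at -1.20 ± 0.43 and Ccn4 at 0.58 ± 0.62, and these did not pass (adjusted p = 0.0503, 0.135 and 0.603). In this fit 380 genes, 2.94% of 12947, were called and 25.3% were under an unadjusted p of 0.05. With 1 library in each arm, and stromal cells of different make-up in each (given below), these p-values compare the 2 libraries and not the treatments. Both calls were lost with doublets kept (adjusted p = 0.0534 for Ccn2 and 0.0577 for Ccn5), without the gene list covariate (0.0551 and 0.103) and without the library labelled SARAWT PBS 3 (0.0807 and 0.0579, 83 genes called). The 14 immediate early genes summed to 8837 CPM in the PBS and 4139 CPM in the bleomycin library, with 9 lower at an unadjusted p under 0.05, and their part was not tested. The genes of the 5 lists that were called between these 2 libraries were all lower after bleomycin. Of 19 YAP/TAZ targets tested these were Tgfb2, a TGF-beta ligand gene (-3.13 ± 0.59), and Ccdc80, an extracellular matrix gene (-3.57 ± 0.43). Of the 14 immediate early genes it was Zfp36, an RNA-binding protein gene (-2.62 ± 0.51). The median log2 difference of the 19 YAP/TAZ targets was 0.42, against -0.002 for all genes, so Tgfb2 and Ccdc80 went against the median of their list. List genes were followed in the main fit only, so these calls have no check by the alternatives. The difference in the bleomycin effect, SARATg minus SARAWT, was 2.20 ± 0.60 for Ccn2, 2.99 ± 0.73 for Ccn3 and -2.17 ± 0.62 for Ccn5, and none passed (edgeR adjusted p = 0.388, 0.342 and 0.399). It was 0.43 ± 0.49 for Ccn1 and -0.40 ± 0.72 for Ccn4. The stromal cells of these 2 libraries were of different make-up. The PBS library had 18 Cthrc1-set, 296 adventitial and 301 Mmp3-set cells of 911, and the bleomycin library had 242, 19 and 19 of 406. Within the adventitial set, Ccn3 was at 13.8 CPM after PBS and 191 after bleomycin, and Ccn5 at 110 and 0 (0 of 513785 UMIs, which allows up to 5.84 CPM). Within the Cthrc1 set Ccn2 was at 62.7 and 151 CPM, and within the Mmp3 set at 9.14 and 8.53 CPM, the latter from 2 UMIs. In fits of the Cthrc1 set alone Ccn2 was at 1.35 and Ccn5 at -0.39 and neither passed (edgeR adjusted p = 0.281 and 0.937; 1 gene called), and in the Mmp3 set Ccn2 was at -0.57 (adjusted p = 0.930).

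**Figure D4:**
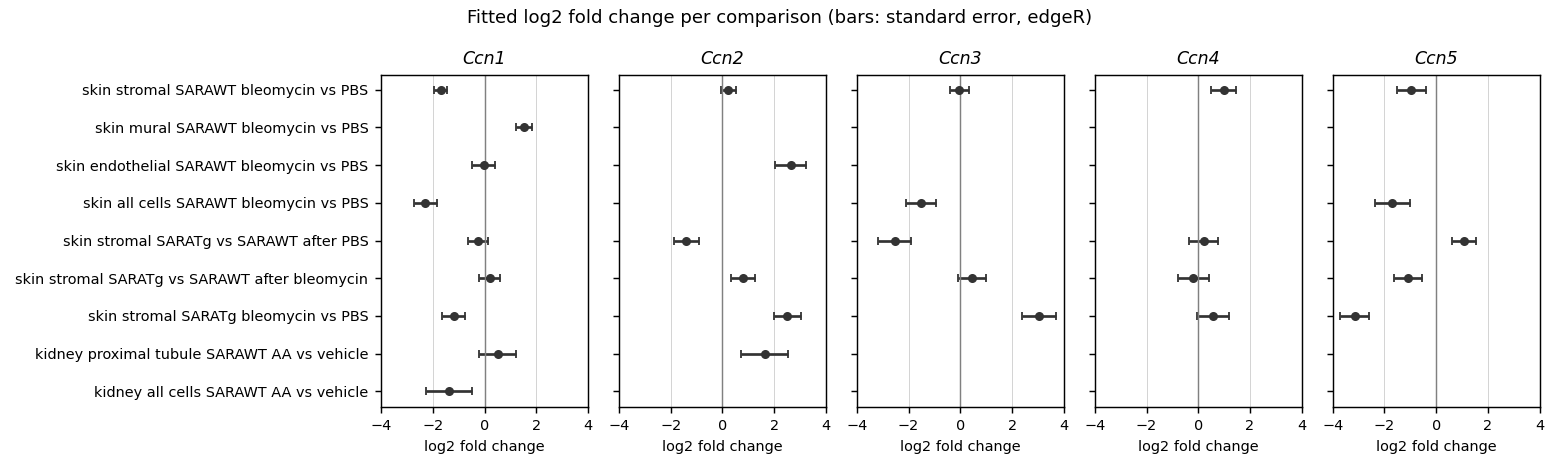
Log2 fold change with its standard error (edgeR) for the members in 9 of the comparisons, 1 panel per gene and 1 line per comparison. Ccn1 is at -1.69 in skin stromal and 1.53 in skin mural cells after bleomycin, and of the fold changes drawn 2 passed an adjusted p of 0.05, Ccn2 at 2.51 and Ccn5 at -3.15 between the SARATg libraries, with 1 library in each arm.

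In kidney the family was spread over other cells. Of the 33069 Ccn1 UMIs 85.7% lay in proximal tubule cells, the segment that takes up AA, and the 49 stromal and 59 mural cells were few. Proximal tubule cells were 19066 of the 57138 kidney cells, with 5886 in SARAWT vehicle 1 and 6626 in SARAWT vehicle 2, so this share reflects cell numbers as well as level. Ccn2 had 3208 UMIs, with 23.9% in endothelial and 21.4% in proximal tubule cells. Ccn4 had 388 UMIs, with 40.2% in endothelial cells, Ccn3 had 76, with 77.6% there, and Ccn5 had 18. The defining class of a pericyte, mural, had at least 10 cells in 3 libraries, all given vehicle. It had the highest mean Ccn2 of any kidney class, at 405, 437 and 738 CPM, and Ccn1 at 545, 256 and 193 CPM, for SARAWT vehicle 2, SARAWT vehicle 3 and SARATg vehicle 2.

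Kidney Ccn1 was at 148 ± 124 CPM in proximal tubule (n = 9), 103 ± 90.8 in distal convoluted tubule (n = 9), 40.2 ± 23.2 in endothelial cells (n = 8) and 12.9 ± 7.02 in the thick ascending limb (n = 9), and no neighbours in this order differed after adjustment. Mural cells (mean 331 CPM, 3 libraries) and podocytes (379 CPM, 1 library) had higher Ccn1 but too few libraries for the test, and are not in this order. Ccn2 was at 99.8 ± 61.8 CPM in endothelial cells and at 8.03 ± 8.06 in proximal tubule, a difference of 2.48 ± 1.62 on the log2(CPM + 10) scale (higher in 7 of 8 libraries, exact sign-flip permutation p = 0.0156, adjusted 0.0423). Ccn4, at 15.3 ± 9.98 CPM in endothelial cells, was likewise above proximal tubule (1.16 ± 0.68, adjusted exact permutation p = 0.0423). Ccn1 went the other way between these classes, lower in endothelial cells in 7 of 8 libraries, and did not pass (-1.23 ± 1.12, adjusted exact permutation p = 0.0685).

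**Figure D5:**
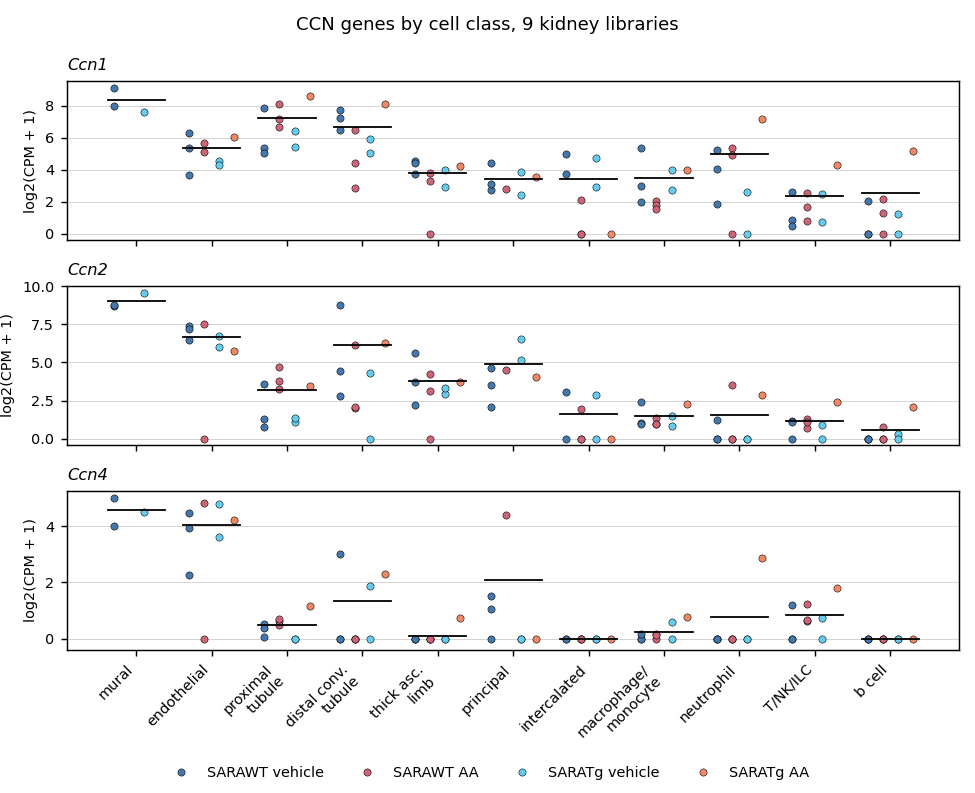
Level of Ccn1, Ccn2 and Ccn4 in kidney, as log2(CPM + 1), for 11 cell classes. Each point is 1 library with at least 10 cells of the class, coloured by group, and the line is the mean CPM over libraries. Ccn2 is highest in mural cells (3 libraries) and Ccn1 is higher in proximal tubule than in endothelial cells in 7 of 8 libraries.

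AA against vehicle in SARAWT kidney asks the same question for the injured kidney. In proximal tubule Ccn1 was at 40.9, 233 and 31.8 CPM after vehicle and 143, 100 and 273 CPM after AA, with overlapping groups (log2 difference 0.52 ± 0.71, edgeR adjusted p = 0.721). Ccn2 was at 0.742, 1.52 and 11.0 CPM after vehicle and 8.54, 12.6 and 25.4 after AA. Only vehicle 3 reached the AA range, and the difference of 1.64 ± 0.90 did not pass (adjusted p = 0.411; 0 of 13857 genes called, 0%, 1803, 13%, under an unadjusted p of 0.05, DESeq2 142). Without vehicle 3, whose make-up stood apart from the other SARAWT vehicle libraries, edgeR called 696 genes, with Ccn2 at 3.49 (adjusted p = 0.0188). In SARATg kidneys proximal tubule Ccn1 was at 41.3 and 84.2 CPM after vehicle and at 387 CPM in the library labelled SARATg AA 1, and Ccn2 at 1.11, 1.55 and 9.82 CPM. The summed immediate early genes in proximal tubule were at 442, 1712 and 1348 CPM in the SARAWT vehicle libraries, 1600, 504 and 1146 in SARAWT AA, 337 and 924 in SARATg vehicle and 1966 in the library labelled SARATg AA 1. Their part in the Ccn1 values was not tested.

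Endothelial Ccn2 was at 86.5, 167 and 147 CPM in the SARAWT vehicle libraries, at 179 CPM in the library labelled SARAWT AA 1 and at 0 CPM in SARAWT AA 2 (0 of 79084 UMIs, which allows up to 37.9 CPM). It was at 62.7 and 104 CPM in the SARATg vehicle libraries and at 52.5 CPM in the library labelled SARATg AA 1. The third SARAWT library given AA had 3 endothelial cells and was left out, and the other 2 lay on either side of the vehicle range. Neither AA against vehicle (-0.13 ± 0.72, edgeR adjusted p = 1; 0 of 10420 genes called, 0%, 431, 4.14%, under an unadjusted p of 0.05, DESeq2 8) nor SARATg against SARAWT vehicle passed (Ccn2 -0.65 ± 0.70, Ccn1 -1.12 ± 0.61, adjusted p = 1 for both; 2 genes called, 0.0192%, and 353, 3.39%, under an unadjusted p of 0.05). Over all kidney cells Ccn1 was at 38.9, 199 and 12.6 CPM after vehicle and 20.2, 40.4 and 39.6 after AA in SARAWT mice (-1.38 ± 0.88, edgeR adjusted p = 0.424; 0 of 18035 genes called, 0%, 2542, 14.1%, under an unadjusted p of 0.05, DESeq2 147), with vehicle 3, poor in proximal tubule, the lowest of the vehicle libraries. Without vehicle 3 edgeR called 6382 genes, with Ccn1 at -1.85 (adjusted p = 0.0557), and without vehicle 2 Ccn1 was at 0.14 (adjusted p = 0.940). In all, 44 pairs of a member and a comparison were fitted in both tissues, 14 were under an unadjusted p of 0.05, and 2 were past the adjusted threshold, both between the SARATg skin libraries. That comparison has 1 library in each arm and was added after the values were seen. In the main edgeR fits of the other comparisons, which have no replicate block, 0 members passed. Members that passed in alternative fits are given with those fits. Over all genes, the share under an unadjusted p of 0.05 was 3.39% to 25.3%, depending on the comparison.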

How the data were processed

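The labels name droplet 3′ v3 libraries, mm10, Cell Ranger 3.0.2 and Seurat 2.3.4. The file headers name Cell Ranger 3.0.2, 3.1.0 or 4.0.0. The authors deposited whole UMI counts per gene and cell, which are not scaled to transcript length, so levels of different genes compare molecules captured. Cells with fewer than 200 genes or over 20% mitochondrial UMIs were dropped, and the highest scrublet doublet scores (scanpy 1.11.5) were removed, 0.8% per 1000 cells. Classes needed 3 of 10 markers and more than any other class, and a library at least 10 cells of a class. Counts were summed per library and class, CPM is per 1000000 class UMIs, and intervals and floors (3 counts) cover counting error only. Sums were tested in edgeR 4.0.16 (quasi-likelihood, TMM, two-sided, Benjamini-Hochberg over all genes tested, threshold 0.05), checked on simulated counts, with DESeq2 1.42.0 as an alternative. SARAWT skin libraries were fitted alone, the 8 skin libraries together for SARATg, and the kidney libraries together. Class differences used an exact sign-flip test on log2(CPM + 10).

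Same-numbered SARAWT skin libraries deviated together in stromal cells (r = 0.254, 0.299 and 0.355, against -0.24 to -0.06 for different numbers). Over all cells they were at 0.389, 0.170 and 0.585, but libraries numbered 1 and 2 of different treatments were also at 0.236 and 0.276. Numbers 1 and 2 have the longer gene list and number 3 the shorter, so over all cells number and gene list cannot be told apart. Blocked values stand beside the skin bleomycin results. Same-numbered libraries also share a gene list, and the labels give no source for the pairing. Named genes were the 6 members, Zfyve9 and ZFYVE9, the 3 closest genes per member, and list members that passed. The members, lists and tests were chosen with earlier results of these data known.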

Additional observations from a re-analysis of the deposited data

Results flagged for a closer look

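One result was picked out because its groups moved in opposite directions in 2 classes of cells. Only Ccn1 in stromal and mural cells was put to this rule, with earlier results of these data known, so it was not the outcome of a search. After bleomycin, Ccn1 was lower than after PBS in stromal cells of every SARAWT library and higher in mural cells of every SARAWT library with at least 10 of them. Such a lower group without overlap was seen for 14.9% of genes in stromal cells, and such a higher one for 13.8% in mural cells. Mural Ccn1 in SARATg PBS was at or above the median of 286 CPM over 7 libraries, and so above the SARAWT PBS libraries. Neither fold change passed without the replicate block (edgeR adjusted p = 0.0554 and 0.101). With it the stromal one passed (-1.71, adjusted p = 0.0288) and the mural one did not (1.32, adjusted p = 0.0515). Same-numbered libraries also share a gene list, and the labels give no source for the pairing. With unshared barcodes and no block the stromal one was -1.21 and did not pass (edgeR adjusted p = 0.345), and without both libraries against their labels it was -1.43. In the stromal cells 9 of 14 immediate early genes were lower at an unadjusted p under 0.05, which 22.6% of all genes reached in either direction. Their median log2 difference was -0.68, against -0.04 for all genes. The stromal minus mural difference, on the log2(CPM + 10) scale, was 2.33 after PBS and -0.76 after bleomycin, which is a change of -3.09 (n = 3 and 2 libraries). The exact permutation p was 0.2, the smallest these numbers allow, so the difference cannot pass at this size. The other 3 such differences compared also fell, by 2.32 for Ccn2 against mural cells and by 2.14 (Ccn2) and 1.83 (Ccn1) against endothelial cells. They use stromal values of the same libraries and are not separate evidence. Each was at its smallest possible exact permutation p and could not pass at these numbers.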

How the results depend on the processing

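All counts here are of genes past the adjusted threshold, and the cause of a change was not tested. DESeq2 in place of edgeR called 611 genes in skin stromal, 27 in mural, 49 in endothelial and 1349 in all skin cells for bleomycin, 20 and 87 for SARATg against SARAWT after bleomycin and PBS, 8, 142 and 147 for AA in kidney endothelial, proximal tubule and all cells, and 7 for SARATg vehicle in kidney endothelial cells. No filter on low counts gave 684, 137, 163 and 370 for the 4 skin bleomycin comparisons in that order, 273 and 420 for SARATg after bleomycin and PBS, and 141 and 179 for AA and SARATg in kidney endothelial cells. The replicate block gave 689 (stromal), 78 (mural), 20 (endothelial), 650 (all skin cells) and 37 (kidney endothelial AA). The mural and endothelial cells are of the same paired skin libraries, though their own same-numbered sums correlated at only 0.09 and 0.188 (mural) and -0.008 to 0.153 (endothelial); in kidney the libraries share only a number. Under the block endothelial Ccn1 turned to 0.07, and beside Ccn1 in stromal and all skin cells it changed no call of a member whose fold change is given.

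Unshared barcodes gave 1 (stromal), 43 (mural), 5 (endothelial), 71 and 42 (SARATg after bleomycin and PBS). A gate of 4 markers gave 151 (mural) and 7 (endothelial), doublets kept 2 (stromal) and 0 (mural), and the strict cell filter 23 (skin endothelial) and 0 (kidney SARATg). In stromal cells a gene list covariate gave 19, leaving out both libraries against their labels 1, and the adventitial, Cthrc1 and Mmp3 sets 9, 436 and 1. Of the 46 class differences 17 passed, against 11 of the 35 that could be made with the strict filter and 11 of 34 with unshared barcodes. Leaving out 1 library at a time gave 0 to 7 in stromal, 0 to 117 in mural, 0 to 9 in endothelial and 0 to 1022 in all skin cells, 0 to 1 for SARATg after PBS, and in kidney 0 to 1 and 0 to 15 in endothelial cells (AA, SARATg), 0 to 696 in proximal tubule and 0 to 6382 in all cells.

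For SARATg bleomycin against PBS (380 called), DESeq2 gave 1356, no filter 2044, doublets kept 232, unshared barcodes 1006, no gene list covariate 163, the adventitial, Cthrc1 and Mmp3 sets 776, 1 and 99, and leaving out 1 SARAWT library 83 to 1348; Ccn2 was at -0.566 in the Mmp3 set and Ccn4 at -2.17 in the Cthrc1 set. Over its alternatives the adjusted p ran from 1.81e-06 to 0.93 for Ccn2 and from 5.83e-09 to 0.937 for Ccn5.

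Most other reversed fold changes lay near 0. In stromal cells after bleomycin, Ccn2 was at -0.018 without both libraries against their labels and Ccn3 at 0.005 without the filter, 0.003 under the strict filter and 0.358 in the Cthrc1 set, and Ccn5 was at 0.185 in the Mmp3 set. Leaving out 1 library gave -0.105 to 0.459 for Ccn2 and -0.289 to 0.277 for Ccn3 there, -0.378 to 0.591 for endothelial Ccn1, -0.079 to 0.296 and -0.345 to 0.106 for Ccn1 in SARATg after bleomycin and PBS, -10.089 to 0.511 for kidney endothelial Ccn2 and -1.847 to 0.141 for Ccn1 in all kidney cells. Kidney endothelial Ccn2 was at 0.623 with doublets kept. For SARATg, unshared barcodes gave -0.053 for Ccn1 and 0.072 for Ccn4 after bleomycin and -0.112 for Ccn4 after PBS, and no covariate -0.501 for Ccn4 after PBS. Joining the lists by symbol, in place of Ensembl ID, sets a gene to 0 in the libraries that write it otherwise. It gave -13.401, -11.472 and -10.57 for Ccn1, Ccn2 and Ccn3 after bleomycin and -9.909 and -11.358 for Ccn4 and Ccn5 after PBS under the current symbols with no covariate. The older symbols with no covariate gave 1.568 and 0.717 for Ccn4 and Ccn5 after bleomycin and 1.171 for Ccn1 after PBS, and with the covariate 0.004 for Ccn4 after bleomycin. A further 10 values, of the current symbols with the covariate, were left out. Their counts lay only in libraries that the covariate sets apart.

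Reversed class differences were all between classes not shown to differ. With a gate of 4, Ccn2 was at 0.377 (stromal against mural), -0.081 (mural against endothelial) and -0.014 (endothelial against keratinocyte) and Ccn5 at 0.226 (mural against endothelial). With doublets kept, Ccn2 was at -0.156 (stromal against endothelial), -0.125 (mural against endothelial) and -0.2 (muscle against schwann), the last at -0.147 with a gate of 2. Ccn2 was at -0.018 (stromal against endothelial) with unshared barcodes and -0.144 (endothelial against keratinocyte) under the strict filter.

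Of the 515 alternative fits behind fold changes given or bounded in the text, 441 kept direction and side of the threshold, 27 newly passed, 14 no longer passed and 33 reversed. Of 245 for class differences these were 216, 3, 16 and 10. Fold changes were given for 32 of the 44 pairs tested, a choice made after the values were seen. In 193 alternative fits of the rest, 3 passed: mural Ccn2 without the filter (2.84, edgeR adjusted p = 7.7e-05) and without bleomycin replicate 3 (4.07, adjusted p = 0.00743), and Ccn3 in kidney endothelial cells of SARATg against SARAWT vehicle without the filter (-3.80, adjusted p = 0.00165). The mural and endothelial classes, with 4 to 72 cells per skin library, set the precision of their values. The SARATg bleomycin against PBS comparison and the alternatives by stromal set, by label-contrary libraries, and by symbol with no covariate were chosen after seeing the data.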
